A study of Mus musculus with 4 samples.

Results

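The genes described here are the mouse histone genes whose symbols start with H1f, H2ac, H2bc, H3c or H4c and that held at least 20 unique molecular identifiers (UMIs, 1 per captured transcript) summed over the 4 libraries of the series. They were chosen by this rule from summed UMIs over all barcodes, and 60 of the 73 genes with such symbols passed, of 33696 genes in the feature list, 19245 of which held 20 UMIs or more. The 60 genes were 7 linker histone genes (H1f), 14 H2A genes (H2ac), 16 H2B genes (H2bc), 11 H3 genes (H3c) and 12 H4 genes (H4c). At the limit of the rule, H3c2 held 21 UMIs, H2bc26-ps 25 and H4c11 26, while H2bc12 held 17, H4c6 15, H2ac23 14 and H3c8 12 and stayed out. H1f4 was singled out from its ratio between the week-32 libraries in naive B cells, so that value is given as a description only.

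Livers of male C57BL/6J mice, 7 weeks old at the start, were sampled by image-guided fine needle aspiration (FNA) while the mice were on the FPC diet, a feed with fructose, palmitate, cholesterol and trans-fat. P-LC24 was taken at week 24 on 0.05% cholesterol, P-HC24 at week 24 on 1.25%, I-LC32 at week 32 on 0.05% throughout, and I-HC32 at week 32 after 1.25% to week 24 and 0.05% for the last 8 weeks. The mice sampled at week 24 were sampled again at week 32, and each library pooled 12 biopsies of 3 mice, so a library held no separate mice. P-HC24 over P-LC24 (Progression, Prog) asks what the high cholesterol level changes, and I-HC32 over I-LC32 (Intervention, Int) asks what remains after its reduction.

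With 1 library per group no test was made, and every ratio compares 2 libraries, in which diet, mice and handling cannot be told apart. Values are UMIs of a gene per 1000000 UMIs of the class (CPM), and levels are given for P-LC24 and P-HC24 first and then for I-LC32 and I-HC32. Intervals in brackets are exact 95% intervals and cover counting error only. The libraries kept 4930, 6532, 6977 and 6919 cells with 38509673 to 77017579 UMIs, and pairs of libraries shared 12 to 29 barcodes. Clustering left out the histone genes and the S and G2M lists of cell cycle genes. Cell cycle genes outside these lists were not taken out. Naive B-like cells (clusters 1, 2 and 4, 2188 to 2563 cells per library) had B cell markers, with Fcer2a and Cr2 among the leading genes of each cluster. The first gene was Igha in cluster 1, Gm47782 in cluster 2 and Fcer2a in cluster 4. T-like cells (clusters 3, 7, 12 and 15) held 786 to 1210 cells per library, NK-like cells 63 to 244, monocyte-like cells 84 to 199, neutrophil-like cells 32 to 125 and peritoneal macrophage-like cells 35, 463, 72 and 631. Cluster 0 held all B cell markers and was led by Agbl1 and Sox5, and cluster 5 held them with lambda light chain genes in the lead. Cluster 8 held all T cell markers with Ctla2a and Ly6c2 in the lead. Cluster 13 was led by Retnla and Fcrls, with Cd209a among its leading genes, and held dendritic cell, monocyte and macrophage markers. The erythroid-like cluster also held the B cell markers. So did cluster 19 (3, 8, 11 and 20 cells), which was led by Pclaf and Top2a and is called dividing B cells. Of the label's non-parenchymal cells, B-like clusters made up the most, and hepatocyte markers led 67 cells.

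Histones package DNA: H2A, H2B, H3 and H4 form the core of the nucleosome, and H1 binds the linker DNA where it enters and leaves that core. Most histone genes sit in clusters, are transcribed mainly in S phase, and give messages that end in a conserved stem-loop, bound by SLBP, in place of a poly(A) tail. Some of these genes also give longer, polyadenylated messages, which are known from differentiated and resting cells, and the 3′ kit used here captures messages by their poly(A).

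Of the 60 members, 45 lay on chromosome 13, 9 on chromosome 3, 3 on chromosome 11, 2 on chromosome 6 and 1, H1f0, on chromosome 15 (chr15:78912650-78914704, GRCm39, GENCODE annotation). A stem-loop of 6 base pairs around a loop of 4 bases was found within 200 bases after the coding end in 56 members, and none was found for H1f0, H1f10, H2ac22 and H2bc21. The sequences below are shown because the place of the stem-loop, relative to the annotated end of the transcript, is what the sums of long-ended and short-ended members below are built on. Each is the sense strand of the last part of the message, with the 16 bases of the stem-loop in capitals and their GRCm39 coordinates.
H1f4, linker histone H1.4, chr13:23805765-23805780, minus strand: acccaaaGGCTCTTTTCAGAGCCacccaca
H1f2, linker histone H1.2, chr13:23923495-23923510, plus strand: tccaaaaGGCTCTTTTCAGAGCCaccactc
H1f5, linker histone H1.5, chr13:21964007-21964022, minus strand: ccccaaaGGCTCTTTTCAGAGCCacctaga
H2ac24, an H2A gene, chr13:22017199-22017214, minus strand: aaaaaaaGGCTCTTTTCAGAGCCatccaca
H2bc4, an H2B gene, chr13:23868630-23868645, plus strand: ttccaaaGGCTCTTTTCAGAGCCacccact
H3c6, an H3 gene, chr13:23746077-23746092, minus strand: ccaaaacGGCTCTTTTAAGAGCCacctcca
H4c4, an H4 gene, chr13:23765933-23765948, plus strand: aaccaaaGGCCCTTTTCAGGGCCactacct
H4c9, an H4 gene, chr13:22225136-22225151, minus strand: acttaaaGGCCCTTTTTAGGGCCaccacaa

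The element itself hardly varied. The 16 bases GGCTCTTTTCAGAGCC stood in 37 members of the H1f, H2ac, H2bc and H3c families, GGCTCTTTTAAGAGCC in 6 and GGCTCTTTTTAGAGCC in 1. The H4c genes carried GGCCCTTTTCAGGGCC in 7 cases, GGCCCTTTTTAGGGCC and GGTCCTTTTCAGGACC in 2 each and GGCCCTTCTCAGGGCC in 1. H1f4, H1f2, H2bc4 and H1f5 therefore share the same 16 letters. What differed was the annotated transcript beyond it: the farthest end lay 1153 bases past the stem-loop for H1f4, 840 for H1f2, 9518 for H2bc4, 770 for H4c4, 3 for H2ac24 and -46, before the stem-loop, for H1f5. The members with an annotated end at least 100 bases past the stem-loop, called long-ended below, numbered 26 and held 56013 UMIs, 81.3% of the UMIs of all members (median 728.5 per gene). The 30 short-ended members, whose transcripts end before the stem-loop or within 100 bases of it, held 10676 UMIs, 15.5% (median 145.5), and the 4 members without a stem-loop held 2201, 3.19%.

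The 200 bases before the annotated start are shown for H1f4 and H1f2, the linker genes with the most UMIs, with matches to CCAAT, to TATAA and to the H1 box (AAACACA) in capitals. Both genes hold an H1 box and a CCAAT match, and the TATAA match is in H1f4.
H1f4, chr13:23806542-23806741, minus strand: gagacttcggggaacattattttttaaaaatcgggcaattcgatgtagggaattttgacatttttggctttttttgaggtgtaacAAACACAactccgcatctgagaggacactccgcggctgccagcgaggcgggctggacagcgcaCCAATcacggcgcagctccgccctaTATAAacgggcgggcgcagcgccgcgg
H1f2, chr13:23922591-23922790, plus strand: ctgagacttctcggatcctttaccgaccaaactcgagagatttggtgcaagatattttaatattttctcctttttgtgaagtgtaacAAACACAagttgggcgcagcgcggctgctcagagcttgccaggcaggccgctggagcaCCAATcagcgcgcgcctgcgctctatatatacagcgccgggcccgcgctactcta

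Searched on both strands of these 200 bases, CCAAT matched in 75.0% of the members and in 32.3% of 21593 protein-coding genes, TATAA in 58.3% and 17.5%, and the octamer core TTGCAT in 26.7% and 7.29%. The CCAAT matches took in all 14 H2ac genes and 15 of the 16 H2bc genes. The H1 box matched in 4 of the 7 H1f genes, in 11.7% of the members and in 4.55% of protein-coding genes. These are matches of letters and say nothing of binding.

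Near-identical copies limit what a UMI can say about a single gene. Over windows of 90 bases, 41 members shared at least 10% of their transcript windows with another gene, 21 shared at least 50%, and 8 shared none. The shared part was 93.2% for H3c10, 92.4% for H2ac24, 31.9% for H2ac8, 27.9% for H1f4 (with H1f2, H1f3 and H2bc6), 9.37% for H2bc6, 8.32% for H2bc4, 5.71% for H1f2, 0.858% for H4c4 and 0.0972% for H2ac25, and no window of H1f5 was shared. H1f4 (chr13:23804612-23806541) also overlaps H2bc6 (chr13:23766595-23805139) on the same strand, and H2ac25 overlaps Trim17. Values of H2ac24, H3c10 and the other members with mostly shared windows are uncertain between copies. A UMI given to another copy of the same family leaves the family sum unchanged. This does not cover reads shared with another family or with genes outside the rule, such as H2ax for H2ac24, or reads given to no gene. How reads of shared windows were counted was not examined.

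Over all kept cells the summed histone level stood at 312, 277, 188 and 268 CPM, with I-LC32 the lowest. The Prog ratio was -0.17 (-0.21 to -0.14) on the log2 scale and the Int ratio 0.51 (0.48 to 0.54). The median ratio of all genes tested was itself -0.26 in Prog and -0.03 in Int, and the Prog sum turned to 0.0906 against that median and to 0.13 as UMIs per cell, so its direction depends on the scale. The Int sum kept its direction on both, at 0.54 and 0.84. In Prog, 30 of the 60 members held at least 100 UMIs over both libraries. Of these, 5 stood higher in P-HC24 by 1.2-fold or more, beside 17.3% of all genes tested, and 15 lower by as much, beside 50%. In Int, 27 held 100 UMIs, 13 were higher in I-HC32, beside 17.6% of all genes, and 2 were lower, beside 21.3%. The median ratio of the counted members was -0.33 in Prog and 0.26 in Int. A member with few UMIs enters such a count only through the library where it is high, so these counts describe the abundant members and not all 60.

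The linker histones gave 90.5, 91.4, 53.6 and 92.4 CPM as a family, with I-LC32 below the other 3 libraries and those close to each other. H1f2 stood at 39.3, 38.2, 20.7 and 41.7 CPM (Int 1.01, 0.92 to 1.11), and H1f4 at 34.0, 35.5, 11.5 and 25.5 CPM (Int 1.14, 1.02 to 1.27). Both are replication-dependent linker histones that carry long annotated transcripts. H1f3, which encodes H1.3, followed them at 3.92, 3.62, 1.91 and 3.93 CPM (Int 1.04). H1f5, the short-ended gene of H1.5, had another order of libraries, at 8.02, 7.40, 11.7 and 10.4 CPM, with the week-32 libraries above those of week 24. H1f0 encodes H1.0, the replication-independent linker histone of resting and differentiated cells, and stood at 3.71, 5.57, 5.97 and 9.10 CPM. Over all kept cells it was higher in the library with the high cholesterol history at each week (Prog 0.59, 0.30 to 0.88, and Int 0.61, 0.42 to 0.79). These values mix classes: macrophage-like cells, which held far more H1f0 than naive B-like cells, numbered 35, 463, 72 and 631. Within macrophage-like cells H1f0 was not higher in I-HC32 (Int -0.04 against the median of all genes). In cluster 0 its ratio was -0.26 in Prog and 0.27 in Int. The part of cell mix was not tested. H1f1 (H1.1) stayed between 1.02 and 1.79 CPM, with Int 0.38 (-0.02 to 0.79), and H1f10 (H1.10) held 1, 7, 26 and 5 UMIs and passed no filter.

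The H2A genes summed to 76.8, 52.1, 52.4 and 52.7 CPM, so here P-LC24 stood apart from the other 3 libraries. H2ac25, a long-ended gene on chromosome 11, differed little between libraries, at 26.2, 29.1, 25.9 and 27.7 CPM. H2ac24, a short-ended H2A gene, stood at 15.2, 4.95, 10.1 and 8.41 CPM and had the lowest Prog ratio of the counted members (-1.62, -1.82 to -1.42). H2ac8, whose transcript runs 151 bases past the stem-loop, had the same order of libraries at 13.6, 5.68, 8.85 and 7.37 CPM. The 11 other H2ac genes lay at or below 7.45 CPM in every library.

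The H2B genes summed to 79.0, 80.8, 51.3 and 83.4 CPM, an order like that of the linker genes. H2bc4, the member with the most UMIs (12190), stood at 41.4, 53.6, 24.7 and 56.0 CPM and had the highest Int ratio of the counted members over all kept cells (1.18, 1.10 to 1.27). H2bc6 stood at 14.1, 9.97, 10.8 and 14.8 CPM. H2bc27, on chromosome 11, went the other way, at 10.5, 8.86, 11 and 7.48 CPM, and had the lowest Int ratio (-0.55, -0.72 to -0.39). The 13 other H2bc genes lay at or below 2.91 CPM in every library.

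The H3 genes gave the lowest sum, 14.3, 10.3, 7.20 and 7.97 CPM, with H3c6 at 5.61, 3.71, 2.45 and 2.54 CPM, H3c1 at 1.61, 2.29, 1.09 and 1.30 CPM, H3c4 at 0.857, 1.03, 0.600 and 0.922 CPM and the other 8 at or below 1.61 CPM. The H4 genes summed to 51.5, 42.2, 23.8 and 31.7 CPM. H4c4 stood at 19.2, 18.4, 7.15 and 11.9 CPM, with both week-32 libraries below both week-24 libraries (Int 0.74, 0.57 to 0.91). H4c9 kept between 6.96 and 8.21 CPM, and H4c3 stood at 8.57, 3.86, 2.47 and 3.17 CPM. H4c14, a long-ended H4 gene on chromosome 3, had the highest Prog ratio of the counted members (0.68, 0.33 to 1.03) at 2.54, 4.06, 1.96 and 3.32 CPM, and the other 8 H4c genes lay at or below 8.00 CPM. In Prog the H2ac and H3c sums kept their lower direction on all 3 scales, while the H4c ratio was -0.29 as CPM, -0.0256 against the median of all genes and 0.0153 as UMIs per cell.

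Grouped by transcript end, a grouping chosen after values had been seen, the 2 sums had different orders of libraries. The long-ended sum stood at 240, 234, 144 and 222 CPM over all kept cells, with I-LC32 alone low. The short-ended sum stood at 65.1, 35.3, 37.2 and 35.4 CPM, with P-LC24 alone high. The Int ratio was 0.63 (0.59 to 0.67) for the long-ended sum and -0.07 (-0.15 to 0.01) for the short-ended sum. The short-ended Int ratio turned to 0.26 as UMIs per cell. Single members crossed the grouping: of the long-ended ones H2ac8 had the library order of the short-ended H2ac24, H2ac25 hardly varied and H2bc27 was lower in I-HC32, and the short-ended H1f5 had no high P-LC24.

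I-LC32 had the lowest long-ended sum in each of the 11 classes with at least 50 cells in 3 or more libraries. This is an order of point values, and the 11 classes are cells of the same libraries, so they do not repeat the comparison. Ambient RNA was not removed, and how far it is shared between the classes was not examined. Neutrophil-like cells, counted among them, held 32 cells in I-LC32, and in NK-like cells the counting intervals of I-LC32 and P-LC24 overlap. In naive B-like cells the sum stood at 281, 302, 147 and 243 CPM, in cluster 0 at 271, 280, 153 and 262 CPM and in cluster 5 at 267, 309, 165 and 250 CPM. T-like cells had a smaller spread, at 171, 144, 123 and 153 CPM, as did NK-like cells at 182, 227, 161 and 195 CPM. Monocyte-like cells stood at 205, 155, 104 and 190 CPM and peritoneal macrophage-like cells at 155, 112, 78.9 and 125 CPM, of which the first rests on 35 cells. The same library was lowest for H1f4 and for H1f2 in 10 of the 11 classes, for H4c4 in 9, for H2bc4 in 8 and for H2ac25 in 4.

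The short-ended sum had P-LC24 as the highest library in 9 of the 11 classes, and I-LC32 or P-HC24 as the lowest in all of them. In T-like cells it stood at 98.5, 28.9, 80.6 and 36.2 CPM, so P-LC24 and I-LC32 were above both libraries with a high cholesterol history. NK-like cells gave 49.6, 34.2, 130 and 52.6 CPM, macrophage-like cells 96.1, 24.6, 53.3 and 31.2 CPM and cluster 13 180, 48.9, 132 and 71.2 CPM. In macrophage-like cells and cluster 13 the order was that of T-like cells, and in NK-like cells P-LC24 lay below I-HC32. Naive B-like cells stood at 55.3, 37.6, 14.3 and 25.8 CPM, with both week-32 libraries below both week-24 libraries. The core cycling list, 75 S and G2M genes without any member, was lowest in P-HC24 in 7 of the 11 classes, and in T-like cells it gave 1199, 909, 1559 and 1234 CPM. Its part in the short-ended levels is described with the cycling cells below.

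**Figure D1:**
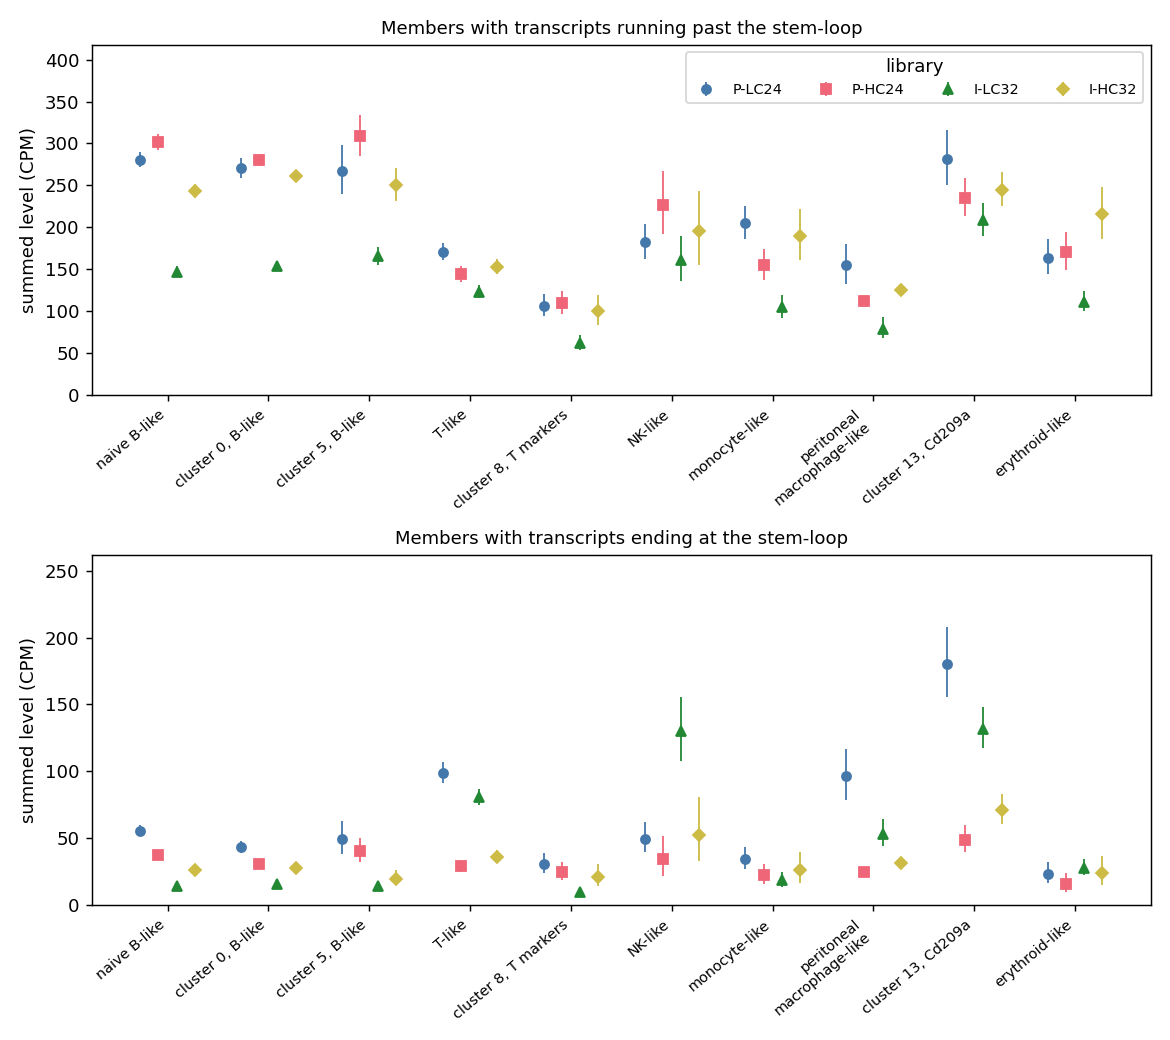
Summed level (CPM, vertical axis) of the 26 long-ended members (top) and the 30 short-ended members (bottom) in 10 cell classes (horizontal axis, neutrophil-like cells left out), with 1 point per library and bars for the exact 95% Poisson interval. In the top panel I-LC32 is the lowest point in all 10 classes, for example 147 CPM against 243 to 302 CPM in naive B-like cells, and in the bottom panel P-LC24 is the highest in most classes, at 98.5 CPM in T-like cells.

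H1f4 varied strongly over libraries in the B-like classes. In naive B-like cells it held 529, 815, 151 and 467 UMIs, or 42.6, 59.6, 10.6 and 32.8 CPM. P-HC24 was the highest library and I-LC32 the lowest, and the other 2 lay between them. The Prog ratio was 0.48 (0.32 to 0.65). The Int ratio, which chose the gene, was 1.63 (1.36 to 1.90) and ranked 34 of 9991 genes tested in that class. Cluster 0 gave 36.8, 41.7, 10.7 and 28.7 CPM (Int 1.42, 1.2 to 1.65), and cluster 5 gave 50.8, 47.0, 6.69 and 26.4 CPM (Int 1.98, 1.39 to 2.60). In all 3 B-like groups I-LC32 was thus far below the other libraries, and I-HC32 below both week-24 libraries.

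Outside B cells the week-32 values of the gene lay closer together in some classes and as far apart in others. T-like cells stood at 24.4, 22.4, 15.7 and 23 CPM (Int 0.54, 0.20 to 0.89), and cluster 8 at 16.8, 13.5, 5.75 and 21.8 CPM. NK-like cells, with fewer cells, stood at 49.0, 59.1, 26.9 and 40.05 CPM. Whether the Int ratio differs between B and T cells was not tested, as there is 1 library per group. Monocyte-like cells stood at 21.5, 21.7, 4.93 and 19.1 CPM, macrophage-like cells at 19.4, 4.68, 4.44 and 7.75 CPM and erythroid-like cells at 20.5, 35.0, 9.81 and 23.9 CPM. Cluster 13 was the exception to the low I-LC32, at 11.5, 17.4, 24.0 and 23.3 CPM, where P-LC24 was lowest.

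The same order held for cells with a UMI of H1f4. Thinned to 3000 UMIs per cell, 11.4% (10.1% to 12.9%), 15.4% (14% to 16.9%), 2.94% (2.30% to 3.69%) and 9.35% (8.12% to 10.7%) of naive B-like cells held one, with exact Clopper-Pearson intervals for counting error only. Those of P-LC24 and I-HC32 overlap. Without thinning the shares were 18.5%, 24.3%, 5.42% and 16.5%. No class here is known to lack H1f4, and macrophage-like cells gave low thinned shares, 1.09% (0.354% to 2.52%), 1.39% (0.0352% to 7.5%, 1 of 72 cells) and 2.07% (1.10% to 3.51%) in P-HC24, I-LC32 and I-HC32. Their median depth there was 22022, 25733 and 20777 UMIs per cell, against 4951.5, 4864 and 5623.5 in naive B-like cells. The naive B-like share of I-LC32 overlaps the macrophage-like shares in its interval, so these shares alone do not tell them apart. As CPM, given above, H1f4 of I-LC32 stood higher in naive B-like than in macrophage-like cells. In T-like cells the thinned shares were 4.24%, 6.25%, 2.99% and 5.38%. Thinning left out 119, 122, 145 and 157 naive B-like cells.

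**Figure D2:**
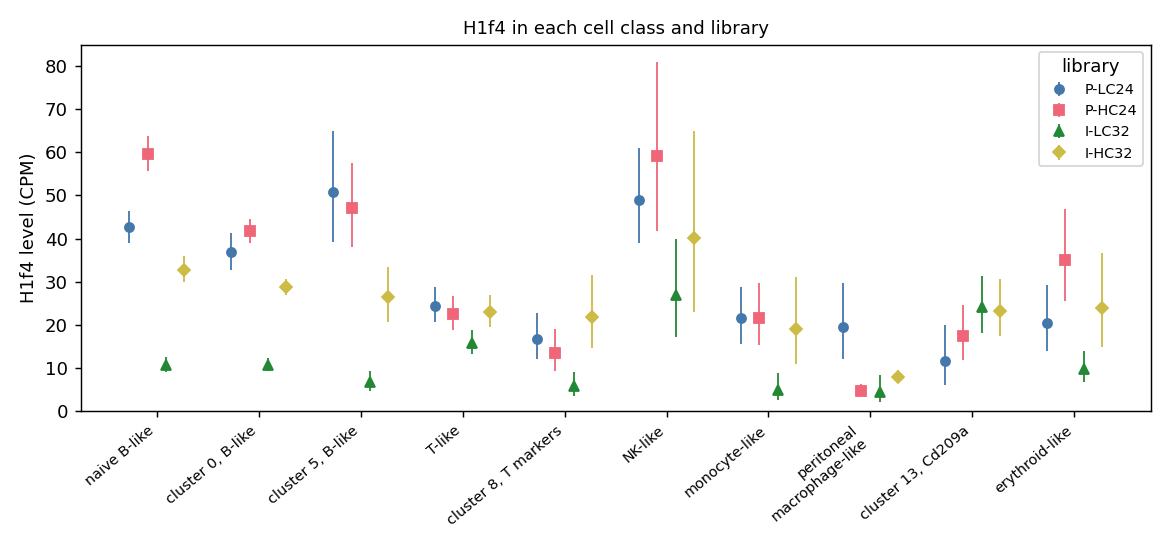
H1f4 level (CPM, vertical axis) in 10 cell classes (horizontal axis, neutrophil-like cells left out), with 1 point per library and bars for the exact 95% Poisson interval. I-LC32 is the lowest point in naive B-like cells at 10.6 CPM, in cluster 0 at 10.7 CPM and in cluster 5 at 6.69 CPM, and cluster 13 is the class shown where it is not the lowest.

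In naive B-like cells the summed histone level stood at 340, 342, 163 and 272 CPM, with a Prog ratio of 0.01 (-0.05 to 0.07) and an Int ratio of 0.74 (0.66 to 0.81). All 5 families stood higher in I-HC32 than in I-LC32: H1f at 93.6 against 41.9 CPM, H2ac at 64.7 against 50.7, H2bc at 73.5 against 45.9, H3c at 8.07 against 5.48 and H4c at 32.3 against 19.2. In Prog, 16 members held 100 UMIs, 3 were higher in P-HC24, beside 13.8% of all genes, and 8 were lower, beside 39.4%. The median of the 16 was -0.32 and that of all genes -0.17. In Int, 10 held 100 UMIs, 7 were higher in I-HC32, beside 16.3% of all genes, and 1 was lower, beside 10.9%. The Int count comes from the contrast that singled out H1f4, so nothing is read from it.

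Single members of these cells moved by different amounts. H1f2 stood at 46.1, 50.9, 27.1 and 49.99 CPM and H2bc4 at 37.6, 44.6, 15.6 and 39.7 CPM, both with I-LC32 alone low. H4c4 stood at 19.4, 23.3, 4.92 and 10.7 CPM, with I-LC32 lowest and I-HC32 next. H2ac25 hardly varied, at 41.7, 45.6, 39.4 and 40.9 CPM (Int 0.05, -0.12 to 0.22). H2bc27 had the lowest Int ratio (-0.41, -0.69 to -0.13) at 18.7, 16.1, 17.3 and 13 CPM. The lowest Prog ratio was that of H2ac24 (-1.36, -1.86 to -0.88) at 9.58, 3.73, 3.44 and 5.55 CPM, and the highest that of H1f4. H1f0 was near the floor in these cells, at 0.242, 0.512, 0.632 and 1.61 CPM, against 16.1 to 37.0 CPM in monocyte-like cells.

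**Figure D3:**
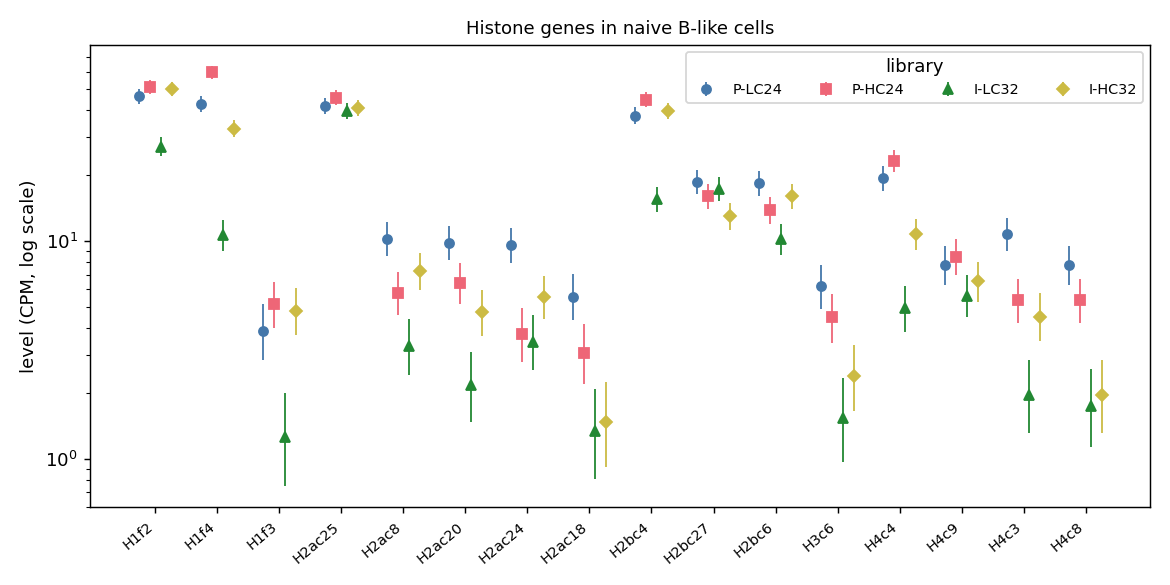
Level (CPM, vertical axis on a log scale) of the histone genes that pass the UMI filter in naive B-like cells (horizontal axis, by family), with 1 point per library and bars for the exact 95% Poisson interval. I-LC32 is the lowest library for H1f4 at 10.6 CPM, H1f2 at 27.1 CPM, H2bc4 at 15.6 CPM and H4c4 at 4.92 CPM, while the 4 points of H2ac25 lie between 39.4 and 45.6 CPM.

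Cluster 0, the deepest of the large B-like clusters, had a histone sum of 322, 317, 176 and 296 CPM (Int 0.75, 0.69 to 0.81). In Int, 19 members held 100 UMIs, 16 were higher in I-HC32, beside 15.5% of all genes, and 1 was lower, beside 13.9%. The median of the 19 was 0.75 and that of all genes 0.01. In Prog, 18 members held 100 UMIs, 4 were higher, beside 13.6%, and 7 were lower, beside 41.4%, with a median of -0.15 against -0.18 for all genes.

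H1f5 had the highest Int ratio of cluster 0 (2.47, 1.73 to 3.31), at 3.49, 3.11, 0.836 and 4.64 CPM. H2bc4 stood at 74.1, 80.4, 39.1 and 79.8 CPM and H1f2 at 39.8, 37.2, 18.9 and 41.4 CPM. In both, 3 libraries lay close together and I-LC32 alone was low. The lowest Int ratio was again that of H2bc27 (-0.40, -0.67 to -0.12). H2ac6, an H2A gene that overlaps H2bc4 on the other strand, had the highest Prog ratio (0.77, 0.10 to 1.51) and H2ac24 the lowest (-1.23, -1.64 to -0.82). In cluster 5, 6 members held 100 UMIs in Int, of which 5 were higher, beside 33.5%, and none lower, beside 16.6%, and 4 in Prog, of which 2 were higher, beside 16.4%, and none lower, beside 46.9%. H1f4 had the highest Int ratio there and H2bc27 the lowest (-0.18, -0.81 to 0.43), and in Prog H2bc4 had the highest (0.83, 0.35 to 1.34) and H1f4 the lowest (-0.11, -0.58 to 0.37).

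T-like cells differed from the B-like cells in which members varied. Their sum stood at 274, 176, 212 and 195 CPM, with a Prog ratio of -0.64 (-0.75 to -0.52) and an Int ratio of -0.12 (-0.23 to -0.02). The Int ratio became 0.44 when each cell was scaled to its own depth, and without cells that held 2 or more UMIs of the core cycling list the Prog ratio became 0.00468 and the Int ratio 0.81, so neither direction of the sum held over all settings. In Prog, 9 members held 100 UMIs, none was higher, beside 13% of all genes, and 6 were lower, beside 47.2%. In Int, 10 held 100 UMIs, 6 were higher, beside 18.7%, and 3 were lower, beside 15.7%.

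The T-like members counted in Int with log2 ratios below -1 were H2ac8, H2ac24 and H1f5, and in Prog these and H4c8. H2ac8 held 142, 11, 177 and 32 UMIs, or 22.8, 1.87, 21.1 and 4.8 CPM, the lowest ratio in both comparisons (Prog -3.61, -4.65 to -2.73; Int -2.14, -2.73 to -1.59). H2ac24 stood at 25.9, 2.21, 16.9 and 6.45 CPM and H1f5 at 13.2, 5.27, 33.1 and 12.3 CPM. H4c8, an H4 gene, stood at 12.1, 4.76, 2.38 and 2.1 CPM (Prog -1.34, -2.02 to -0.70). P-LC24 was above P-HC24, and I-LC32 above I-HC32, for H2ac8, H2ac24 and H1f5. Mki67 stood at 17.5, 2.72, 33.0 and 18.8 CPM and Top2a at 31.5, 7.98, 53.6 and 30.6 CPM, with the same order at each week. These division genes were picked after their values were seen, and the part of division was not tested. The members with high Int ratios were the long-ended H2bc4 (1.36, 0.82 to 1.93), at 4.82, 10.9, 5.13 and 13.2 CPM, and H1f2 (1.27, 0.94 to 1.61), at 24.8, 29.2, 13.8 and 33.5 CPM, which also had the highest Prog ratio (0.24, -0.08 to 0.56). H1f4 in T-like cells turned from -0.12 to 0.11 in Prog against the median of all genes.

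In NK-like cells H1f4 alone passed the filter, in Prog (0.27, -0.33 to 0.84), where it counted as higher beside 17.2% of all genes and 40.6% were lower. No member passed it there in Int, where 17.6% of all genes were higher and 19.8% lower. In cluster 8 it was H1f2, also in Prog (0.10, -0.38 to 0.57) and short of 1.2-fold, beside 12.4% of all genes higher and 43.8% lower, and again no member passed in Int, beside 17.6% and 18.6%. Monocyte-like cells had H1f2 at 55.2, 39.97, 22.4 and 68.0 CPM (Prog -0.47, -0.91 to -0.03; Int 1.60, 1.03 to 2.18) and H2bc4 at 47.4, 29.98, 19.7 and 20.3 CPM (Prog -0.66, -1.17 to -0.17). In Prog these 2 members passed the filter, none higher, beside 19.3% of all genes, and both lower, beside 38.9%. In Int H1f2 alone did, and was higher, beside 20.9%, while 19.6% of all genes were lower.

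Peritoneal macrophage-like cells could be compared in Int only, as P-LC24 held 35 of them. Of 10 members with 100 UMIs, 6 were higher in I-HC32, beside 14.2% of all genes, and 1 was lower, beside 32.1%, with a median of 0.53 against -0.12 for all genes. H1f2 stood at 12.8 CPM in I-LC32 and 33.2 CPM in I-HC32 and had the highest ratio (1.37, 0.80 to 2.00), and H1f5 stood at 34.0 and 12.7 CPM and had the lowest (-1.42, -1.83 to -0.99). H1f0 stood at 24.7 and 22.1 CPM. The I-LC32 values rest on 72 cells, of which 5 held at least 5 UMIs of the core cycling list.

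In cluster 13, 5 members held 100 UMIs in Int, 2 of them higher, beside 21.2%, and 2 lower, beside 25.2%. H2bc4 was high (Int 1.31, 0.91 to 1.72) at 54.4, 93.4, 33.1 and 81.9 CPM, and H2ac24 low (Int -1.39, -1.98 to -0.82) at 54.4, 5.97, 42.1 and 16.1 CPM. H2bc4 also had the highest Prog ratio there (0.78, 0.34 to 1.24), and H1f2 the lowest (-0.32, -0.90 to 0.27), so 1 member was higher, beside 25.1%, and 1 lower, beside 42.9%. Neutrophil-like cells, which do not divide, held H2bc4 at 206, 230, 147 and 171 CPM (Prog 0.16, -0.22 to 0.53) and H1f2 at 101, 83.4, 45.4 and 192 CPM (Prog -0.28, -0.88 to 0.31), with short-ended sums between 0 and 21 CPM. In Prog none of these was higher by 1.2-fold, beside 23.2% of all genes, and 1 was lower, beside 25.4%. In erythroid-like cells H2bc4 stood at 38.9, 42, 20.2 and 78.5 CPM (Prog 0.11, -0.45 to 0.67; Int 1.96, 1.44 to 2.47). It fell short of 1.2-fold in Prog, where 17% of all genes were higher and 51.4% lower, and was higher in Int, beside 22%, with 23.3% lower.

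**Figure D4:**
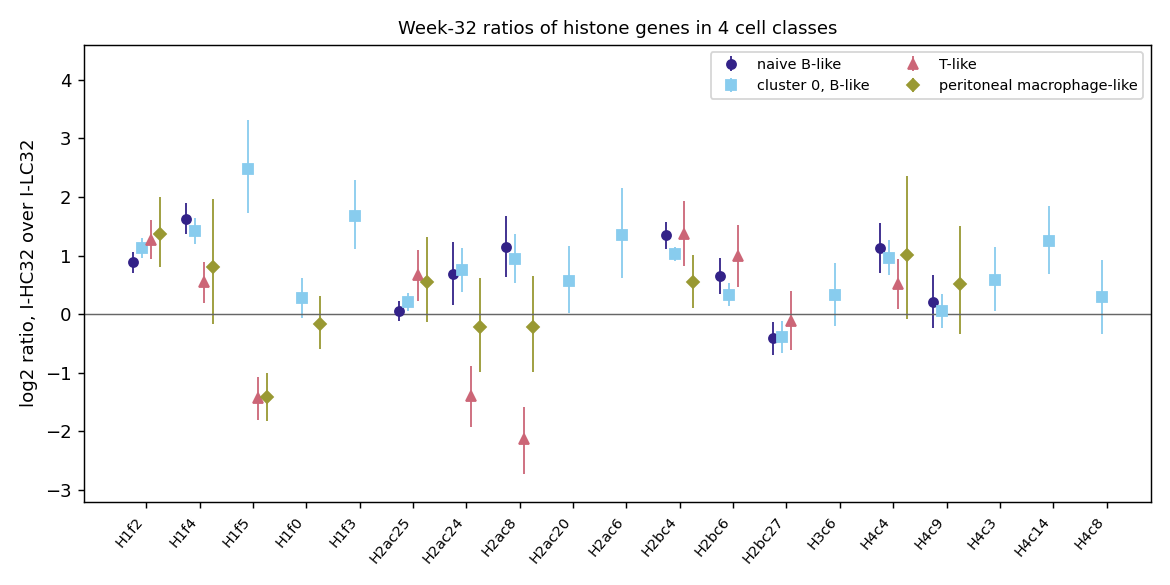
Log2 ratio of I-HC32 over I-LC32 (vertical axis) for the histone genes that pass the UMI filter (horizontal axis, by family) in naive B-like cells, cluster 0, T-like cells and peritoneal macrophage-like cells, with 1 point per class and bars for the exact 95% interval. H1f2, H1f4 and H2bc4 lie above 0 in all 4 classes, while H1f5 lies at 2.47 in cluster 0 and at -1.43 and -1.42 in T-like and macrophage-like cells.

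Cycling cells were then read apart from the rest. At 3000 thinned UMIs per cell, 1824 of 24205 cells held at least 5 UMIs of the core cycling list, 843 of them exactly 5, and 1697 held 1 fewer, so this limit cuts through a continuous range. Their summed histone level was 519 CPM, against 236 CPM in the 11989 cells with 0 or 1 such UMI. Per library the fold was 2.16, 1.62, 3.67 and 1.93. In the 399 cells with at least 8 such UMIs (71, 76, 120 and 132 per library) the sum was 1025 CPM, 4.34-fold that of the cells with 0 or 1, and per library 6.24, 2.69, 8.18 and 3.14-fold.

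The excess in these 399 cells lay mostly in the short-ended members. The short-ended sum was 549 CPM against 22.5 CPM, 24.4-fold (23.3 to 25.6), and the long-ended sum 453 CPM against 205 CPM, 2.21-fold (2.13 to 2.29). Among short-ended members with at least 20 UMIs, 24 of 26 were at least 2-fold higher and 16 at least 10-fold, with a median of 13. Among long-ended members, 15 of 24 were at least 2-fold higher, 7 were lower, and the median was 2.94. With the limit at 5 such UMIs the folds were smaller, with 22 of 27 short-ended members at least 2-fold higher, 8 at least 10-fold and a median of 5.97, and 7 of 24 long-ended members at least 2-fold higher with a median of 1.71. The cells were chosen by the cycling list, which holds no member. No share over all genes stands beside these counts, so they describe the members only. A member with few UMIs can reach 20 UMIs through the cycling cells alone, as H2ac10 did with 94 UMIs against 3. The counts and medians therefore lean towards members that are high in these cells, and the grouping by transcript end was chosen after values had been seen.

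H1f5 held 1788 UMIs in the 399 cells and 258 in the others, 114-fold as CPM (100 to 130). H2ac24 was 32.4-fold, H2ac8 25.6-fold and the H2A gene H2ac4 65.3-fold higher. H3c3 was 438-fold (183 to 1370) and H2ac10 515-fold (171 to 2544) higher, with 5 and 3 UMIs in the other cells, and H3c2 held 19 UMIs against none, at least 104-fold against a floor of 3 UMIs over the group. H1f4 was 3.41-fold (3.12 to 3.72) and H4c4 5.19-fold higher. H1f2 was level, at 33.8 against 34.6 CPM (0.976-fold, 0.858 to 1.11), while H2bc4 stood at 21.4 against 52.3 CPM (0.409-fold, 0.349 to 0.478) and H2ac25 at 9.48 against 28.2 CPM (0.336-fold, 0.263 to 0.424).

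These folds mix cell classes, because the 399 cells are not spread evenly over them. Within T-like cells alone, 161 cells with at least 8 such UMIs were set against 925 with 0 or 1, and the sum was 9.36-fold higher, the long-ended sum 5.02-fold and the short-ended sum 42.5-fold. H1f5 was 372-fold, H2ac24 337-fold, H2ac8 106-fold, H1f4 6.25-fold, H1f2 1.92-fold, H2bc4 1.10-fold and H2ac25 0.688-fold. The short-ended genes again led, and H1f2 and H2bc4 were not lower in these T-like cells.

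**Figure D5:**
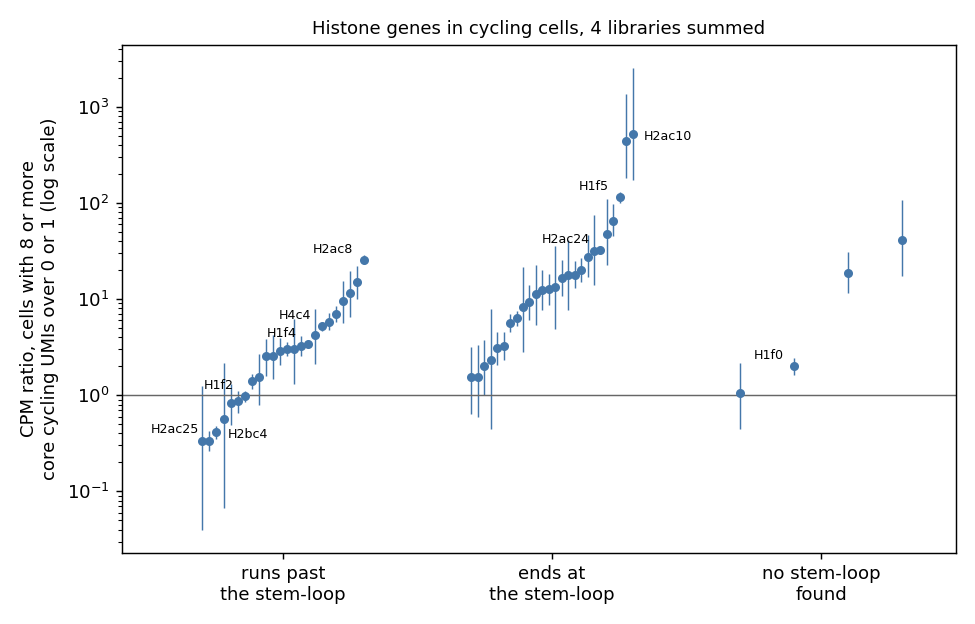
CPM in cells with at least 8 UMIs of the core cycling list over CPM in cells with 0 or 1 (vertical axis on a log scale), 1 point per histone gene with at least 20 UMIs, pooled over the 4 libraries, grouped by where the annotated transcript ends relative to the stem-loop (horizontal axis), with bars for the exact 95% interval. Short-ended members have a median of 13-fold and reach 515-fold, and long-ended members have a median of 2.94-fold with H2bc4 at 0.409 and H2ac25 at 0.336.

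The low long-ended level of I-LC32 was present in cells with 0 or 1 core cycling UMI. There the long-ended sum stood at 239, 231, 132 and 220 CPM over all kept cells, at 280, 305, 140 and 240 CPM in naive B-like cells and at 126, 139, 69.1 and 150 CPM in T-like cells. The short-ended sum of the same T-like cells was 31.1, 17.5, 11.8 and 10.6 CPM, without the high I-LC32 value of all T-like cells. Among T-like cells with at least 5 core cycling UMIs the short-ended sum stood at 325, 61.0, 294 and 119 CPM. The shares of T-like cells with at least 5 were 23.6%, 17%, 21.9% and 22.2%, and with at least 8 they were 4.24%, 2.81%, 5.19% and 5.38% (32, 22, 59 and 48 cells). With at least 12 they were 1.06%, 0.51%, 2.02% and 1.35% (8, 4, 23 and 12 cells). The part of strongly cycling cells in the differences of level between libraries was not tested. In naive B-like cells at least 5 core cycling UMIs made little difference to the sum, 286 against 275 CPM. Few naive B-like cells held 8 or more such UMIs, 21 of 8941, against 161 of 3567 T-like cells. Dividing B cells stood apart in cluster 19, where 41 of 42 cells held 8 or more. The part of this split in differences between B-like and T-like cells was not tested.

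Other genes of the same biology were read from lists. The variant histones are mostly replication-independent histones with poly(A) tails, and the listed Cenpa is also in the G2M list. Of the 15 symbols listed, 10 were in the files and 8 held enough UMIs in naive B-like cells. Of these, 3 were higher and none lower in Prog, where 13.8% of all genes were higher and 39.4% lower, and none differed by 1.2-fold in Int, where 16.3% were higher and 10.9% lower. Their median was 0.20 in Prog and -0.07 in Int. H3f3a, one of the genes of H3.3, stood at 2609, 3218, 2602 and 2442 CPM (Prog 0.30, Int -0.09), without a low I-LC32. H2az1, which encodes H2A.Z, had the highest Prog ratio (0.34), Cenpa, the centromeric H3, the lowest Prog and the highest Int ratio (-0.20 and 0.16), and H2aj the lowest in Int (-0.23). In T-like cells H3f3b had the most UMIs and the highest Int ratio (0.35), at 909, 1080, 943 and 1200 CPM, and H3f3a the highest Prog ratio (0.47).

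The next list held factors that process histone messages or supply histones to chromatin. In naive B-like cells 15 had enough UMIs, of which 1 was higher and 1 lower in Int, beside 16.3% and 10.9% of all genes, and 1 higher and 6 lower in Prog, beside 13.8% and 39.4%. Their median was 0.0065 in Int and -0.26 in Prog. Slbp, the protein that binds the stem-loop, stood at 73.7, 61.6, 72.1 and 73.2 CPM. Caprin1, an RNA-binding protein, had the most UMIs of the list, at 112, 87.4, 97.5 and 90.6 CPM. The highest ratio in both comparisons was that of Lsm11 (Prog 0.34, Int 0.66), a component of the U7 particle that cuts histone messages after the stem-loop, and the lowest that of the histone chaperone gene Asf1b (Prog -0.72, Int -0.86). In T-like cells 4 of 16 were lower in Int, beside 15.7% of all genes, and none higher, beside 18.7%, with Nasp, a chaperone of H1 and H3, at 115, 105, 144 and 98.9 CPM.

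The cell cycle lists changed little between the week-32 libraries in naive B-like cells. Of the S list 26 genes had enough UMIs, 1 of them higher and 2 lower, and of the G2M list 25, with 3 higher and 2 lower, beside the same 16.3% and 10.9% of all genes. Hmgb2, the G2M gene with the most UMIs, stood at 232, 185, 147 and 190 CPM and had the highest Int ratio of its list (0.37), and Top2a the lowest (-0.52). Of the S list Nasp had the most UMIs and Rrm1 the lowest Int ratio (-0.34). In T-like cells, by contrast, 16 of 29 S genes and 22 of 37 G2M genes were lower in Int, beside 15.7% of all genes, with Rrm2 (-0.91) and Dlgap5 (-1.25) the lowest. In Prog 12 of 23 and 14 of 20 were lower, beside 47.2%, with Mki67 at -2.69. In cluster 0, 7 of 32 S genes and 8 of 27 G2M genes were higher in Int, beside 15.5% of all genes, and 2 of each were lower, beside 13.9%.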

How the data were processed

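FNA biopsies were sequenced as 10x 3′ single-cell libraries. The matrices the authors deposited hold raw UMI counts of genes by barcode. Per the submitters' processing notes they came from Cell Ranger 9.0.1 on GRCm39, and no doublet removal, cell filter or ambient RNA step had been applied. Cells with at least 500 UMIs, at least 300 genes and at most 10% mitochondrial UMIs were kept, and the share of each library with the highest Scrublet scores (0.8% per 1000 cells) was removed (scanpy 1.11.5). In R 4.3.3, libraries were normalized by SCTransform (Seurat 5.3.0 with sctransform 0.4.2). Of 3000 variable genes, the histone genes and the genes of the S and G2M lists were taken out, leaving 2958. Libraries were then integrated with a Harmony procedure written for this work over 30 principal components and clustered at a resolution of 0.4. The rest used pandas 2.3.3, scipy 1.17.1 and numpy 2.4.6 under Python 3.11.15, with matplotlib 3.10.9 for the plots.

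UMIs were summed per class and library. Ratios needed 50 cells in each library, and single genes 100 UMIs over both. The limit of 1.2-fold is the study's own. Ratio intervals are exact conditional binomial ones and level intervals exact Poisson ones, at 95%, and the scripts were tested on simulated data. Thinning drew 3000 UMIs per cell. Gene positions and sequences came from the GRCm39 genome with its GENCODE annotation. Members and lists were chosen with earlier results of these data known, and the grouping by transcript end was chosen after values had been seen. Named genes are, in each family, up to 3 members with the highest CPM, the linker histones that pass the UMI filter, and per class the members with the highest and lowest ratio; of each list, the gene with the most UMIs and those with the highest and lowest ratio. Of the genes that these rules name, 1 is not reported here. Genes named beside a cycling fold, and Mki67, Top2a and Slbp, were picked after their values were seen.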

Additional observations from a re-analysis of the deposited data

Results flagged for a closer look

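Some histone genes had ratios of opposite direction in different cell classes under the same comparison, with intervals on either side of 0. The differences between classes were not tested, as each group has 1 library. In Int, H1f5 stood at 2.47 in cluster 0 and at -1.43 in T-like cells, -1.42 in peritoneal macrophage-like cells and -1.10 in cluster 13. H2ac24 stood at 0.69 in naive B-like cells and 0.75 in cluster 0, and at -1.39 in both T-like cells and cluster 13. H2ac8 stood at 1.15 in naive B-like cells and 0.94 in cluster 0, and at -2.14 in T-like cells. In Prog, H2bc4 stood at 0.83 in cluster 5 and 0.78 in cluster 13, and at -0.66 in monocyte-like cells. H1f5, H2ac24 and H2ac8 were also the abundant members with the highest folds in cells with many core cycling UMIs, and the part of cycling cells in their opposite ratios was not tested. Dividing B cells of cluster 19 lay outside naive B-like cells and cluster 0, while T-like cells kept their cells with many such UMIs. The T-like counts depended on the processing. With histone and cycle genes kept in the clustering, no member was counted as lower in Int in T-like cells. Without cells of 2 or more core cycling UMIs, none was counted there in either direction.

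Barcodes that the cell filters left out also held histone UMIs. Those with under 300 genes gave 16.6, 17.2, 13.9 and 21.7 CPM for P-LC24 and P-HC24 and then for I-LC32 and I-HC32, far below the kept cells. Those with 300 genes or more and over 10% mitochondrial UMIs gave 195, 197, 148 and 158 CPM. I-LC32 was the lowest, but its interval (118 to 183 CPM, 85 UMIs) overlaps that of I-HC32 (142 to 176 CPM) and those of the week-24 libraries.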

How the results depend on the processing

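Sums are log2 ratios, counts are members past 1.2-fold, and main values stand in the report. The shares of all genes under these other settings are not given here. The counts therefore show how far the setting moves them and are not read as results about the members. In naive B-like cells the H1f4 ratio kept its direction under every alternative tried (Int 1.55 to 1.86, Prog 0.37 to 0.66, the latter against the median of all genes), and so did the summed Int ratio. With a mitochondrial limit of 5% the sums became -0.33 (Prog) and 0.46 (Int) in all kept cells and -0.19 and 0.68 in cluster 0, and the counts of all kept cells 3 higher in Prog and 4 lower in Int. As UMIs per cell the sums became 0.13 and 0.84 in all kept cells, 0.12 and 0.90 in cluster 0, 0.97 (Int) in naive B-like and -0.76 (Prog) in T-like cells, and the counts 9 higher in Prog, 21 higher and 0 lower in Int in all kept cells and 0 lower in Int in naive B-like cells. Against the median of all genes the Prog sums became 0.0906 in all kept, 0.18 in naive B-like, 0.16 in cluster 0 and -0.40 in T-like cells, with 9, 7 and 2 members higher in Prog in all kept, naive B-like and T-like cells and 1 lower in Int in all kept cells. With each cell scaled to its own depth the sums became -0.0914 and 0.68 in all kept cells, -0.21 and 0.62 in cluster 0 and -0.12 and 0.44 in T-like cells, with 3 and 1 members higher in Prog in all kept and T-like cells. Without H1f genes the sums became -0.26 and 0.38 in all kept, -0.13 and 0.56 in naive B-like, 0.60 (Int) in cluster 0 and -0.84 (Prog) in T-like cells. Without H2bc4 they became -0.28 and 0.37 in all kept cells, and in Int 0.66 in both naive B-like cells and cluster 0. Without cells of 2 or more core cycling UMIs they became 0.72 (Int) in all kept cells and 0.00468 (Prog) and 0.81 (Int) in T-like cells, with 9 lower in Prog and 1 in Int in all kept, 3 lower in Prog in naive B-like, and 0 lower in Prog and 0 in either direction in Int in T-like cells. For T-like cells, the sums became -0.40 and 0.35 with doublets kept (3 higher in Prog), -0.27 and 0.26 at resolution 0.2 (2 higher in Prog), and 0.0602 and 0.90 with histone and cycle genes kept in the clustering (1 higher and 0 lower in Prog, 0 lower in Int), which also turned the Prog sum of cluster 13 to 0.37. With a minimum of 20 UMIs, 8 were higher and 31 lower in Prog and 9 lower in Int in all kept cells, 10 higher and 21 lower in Prog and 18 higher and 2 lower in Int in naive B-like cells, and 6 higher and 15 lower in Prog and 11 lower in Int in T-like cells. With a UMI required in 10% of the cells, 1 was higher and 0 lower in Prog and 5 higher and 0 lower in Int in all kept cells, 0 lower in Prog and 3 higher and 0 lower in Int in naive B-like cells, and 1 lower in Prog and 2 higher and 0 lower in Int in T-like cells. With a minimum of 1 UMI, the counts in Prog were 10 higher and 36 lower, and in Int 22 and 14, in all kept cells, 14 and 35 in Prog and 40 and 10 in Int in naive B-like cells, and 11 and 39 in Prog and 12 and 34 in Int in T-like cells. At 1.5-fold, 3 were higher in Prog and 0 lower in Int in all kept cells, and 0 higher and 5 lower in Prog and 0 lower in Int in naive B-like cells. The fold of cycling cells was 1.27, 1.2, 1.81 and 1.27 with at least 3 core UMIs and 6.24, 2.69, 8.18 and 3.14 with at least 8. Other filters and scalings change the genes or cells counted by construction, and further causes were not tested. No paired analysis was possible because each group has 1 library, which also left no library to leave out.

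Counting depth limits many single members, since 30 of 60 held under 100 UMIs over the week-24 libraries. Poly(A) capture, shared windows between copies and overlapping genes limit what a UMI says of a single gene.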
